A study of Mus musculus with 39 samples.

Results

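The 44 mouse genes described here are those whose proteins hold, link and separate the chromosomes in cell division: the kinetochore, cohesin, the spindle checkpoint and the kinases that act on them. They had been chosen by name from this machinery, at a time when earlier results of these data were known. On the array, 43 of the 44 genes were matched to 61 probes, out of 18905 named genes and 41174 probes in all. No probe was matched to *Nipbl*, which encodes a loader of cohesin. Each gene is given by the probe with its highest mean level over all arrays, and the 43 probes so chosen were all among the 39517 probes tested.

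The study asked how gene expression in cloned mouse embryos departs from that after fertilization, and whether treatments of the clones alter it. All samples were of the (B6xDBA/2)F1 strain (BDF1), from females of 8 to 10 weeks of age in the case of oocytes and donor cells. OC were metaphase II oocytes collected 15 h after hCG (7 arrays), and Cumulus were the cumulus cells used as nuclear donors (4 arrays of 500 cells). IVF were in vitro fertilized 2-cell embryos cultured for 24 h after insemination (6 arrays). TSA(–) were 2-cell embryos cloned by somatic cell nuclear transfer (SCNT), in which the nucleus of a cumulus cell replaced that of an oocyte, at 24 h after activation (8 arrays). TSA(+) were such clones given trichostatin A, an inhibitor of histone deacetylases, at 5 nM for 8 h from activation (6 arrays). Spi-C NT were clones injected at the pronuclear stage with mRNA for the transcription factor Spi-C at 1.0 or 0.1 mg/ml, with no TSA named in their labels (4 arrays each). Each array of oocytes or embryos held the RNA of 10 pooled oocytes or embryos, amplified in 2 rounds. An array is therefore a pool and not an animal, and p-values measure the spread between pools.

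A level is the log2 processed intensity of a probe relative to the 75th percentile of its array, so that 0 is the 75th percentile and not an absence of signal. That percentile was 279 to 527 intensity units in OC and 1029 to 1406 in IVF, and 814 to 2707 over the other groups. The share of probes well above background was 48.6 to 59.6% in OC and 58.2 to 77.4% in the other groups. Arrays of 1 group correlated at r = 0.944 to 0.974 over all tested probes. The Cumulus and the Spi-C NT arrays had been read on another scanner model with another version of the software, on days and slides of their own. For any difference of these groups from the others, group and scan cannot be told apart. The 11 oocyte markers, such as *Gdf9* and *Zp3*, had a summed log2 level of 11.1 to 11.8 in OC and of −0.02 to 0.95 in Cumulus. There, 6 of the 11 were not well above background on any array, among them *Zp2*, *Bmp15* and *Mos*. The 12 cumulus cell markers had a summed level of 8.54 to 8.79 in Cumulus and of −0.58 to 2.20 in oocytes and embryos. Of these, *Amh* was not well above background on any Cumulus array. The means of *Amh* (−3.88 in OC, −6.74 in Cumulus) and *Foxl2* (−4.48 and −5.79) were higher in OC, and those of *Has2* were close (0.58 and 0.87). All the other cumulus cell markers had a higher mean in Cumulus than in OC. The 6 measured 2-cell markers, such as *Zfp352* and *Tcstv3*, summed to 7.19 to 7.64 in IVF and to 4.76 to 5.38 in OC. In the clones these sums were below IVF, at 5.34 to 6.74 in TSA(–) and 5.95 to 6.98 in TSA(+). They were 5.67 to 6.11 in Spi-C NT at 1.0 mg/ml and 5.15 to 6.05 at 0.1 mg/ml, and those of TSA(–) and of 0.1 mg/ml overlapped with OC. The single markers went different ways against OC. Means in OC, TSA(–) and 0.1 mg/ml were −3.81, 4.08 and 4.15 for *Zfp352*, and −1.15, 3.06 and 3.02 for *Eif1a*. They were −6.91, −5.43 and −5.09 for *Usp17lc*, and 0.61, 0.35 and 0.76 for *Zscan4c*. *Tcstv1* (4.10, 4.26 and 3.19) and *Tcstv3* (3.55, 4.56 and 3.34) were already high in OC.

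As background, a kinetochore is the protein assembly that ties a chromosome to spindle microtubules. It is built on centromeric nucleosomes that contain CENP-A. Cohesin is a ring of SMC proteins closed by a kleisin subunit, and it holds sister chromatids together until separase cleaves the kleisin. The spindle checkpoint delays that cleavage, through inhibition of the anaphase-promoting complex (APC/C), while kinetochores remain unattached. Meiotic cells use versions of their own of several parts, such as the kleisin REC8, the subunits SMC1B and STAG3, and the kinase Aurora C. A metaphase II oocyte is arrested with its kinetochores attached, and the first embryonic divisions begin with the transcripts and proteins the oocyte has stored.

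The promoters of 4 members are shown because of their differences between groups: *Aurkc* and *Bub1b* fell most from OC to IVF, *Stag3* rose most there, and *Rec8* differed most between TSA(–) clones and IVF. The sequences are the 250 bases before the start of the gene in RefSeq (GRCm38.p6), all on the plus strand. Capitals mark every match, on either strand, to 6 promoter motifs: the CCAAT box (CCAAT), the cell cycle element CHR (TTTGAA) and its variant TTCGAA, the GC box (GGGCGG), the E-box (CACGTG) and an E2F site (TTTCGCGC). The windows are chr7:6995135-6995384, chr2:118597961-118598210, chr5:138280259-138280508 and chr14:55617916-55618165, in the order of the lines.
Aurkc: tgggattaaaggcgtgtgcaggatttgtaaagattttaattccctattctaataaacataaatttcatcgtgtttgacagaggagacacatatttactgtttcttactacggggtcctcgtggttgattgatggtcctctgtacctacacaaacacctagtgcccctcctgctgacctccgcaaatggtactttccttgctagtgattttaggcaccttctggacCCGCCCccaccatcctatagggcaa
Bub1b: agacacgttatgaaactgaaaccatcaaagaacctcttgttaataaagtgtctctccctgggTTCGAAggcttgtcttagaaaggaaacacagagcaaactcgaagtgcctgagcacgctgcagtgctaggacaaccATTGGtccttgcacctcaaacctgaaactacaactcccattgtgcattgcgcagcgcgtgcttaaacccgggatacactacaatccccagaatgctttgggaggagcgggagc
Stag3: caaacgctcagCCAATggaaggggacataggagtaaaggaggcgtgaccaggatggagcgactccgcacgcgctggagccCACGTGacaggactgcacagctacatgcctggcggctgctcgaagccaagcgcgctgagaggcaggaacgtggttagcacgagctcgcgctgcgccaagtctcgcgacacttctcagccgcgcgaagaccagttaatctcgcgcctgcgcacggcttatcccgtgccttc
Rec8: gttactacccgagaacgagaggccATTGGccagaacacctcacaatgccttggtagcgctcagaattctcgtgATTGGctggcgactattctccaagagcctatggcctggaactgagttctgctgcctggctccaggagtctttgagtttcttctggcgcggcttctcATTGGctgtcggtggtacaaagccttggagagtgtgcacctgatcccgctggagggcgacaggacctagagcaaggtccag
*Rec8* held 3 CCAAT boxes in this window, all on the minus strand, and *Bub1b* and *Stag3* held 1 each. In the 50 bases after the start, which are not shown, *Bub1b* had a CHR from base 41, *Aurkc* a CCAAT box from base 25 and *Stag3* a GC box from base 24. The table of 300-base windows (250 before and 50 after the start) held 38 of the 44 members. *Incenp*, *Aurkb*, *Zwilch*, *Spc24*, *Rad21* and *Nipbl* had no entry. A CCAAT box lay in a window of 27 of the 38 members (71.1%) and of 41.1% of all 27025 genes with a window. A CHR lay in 14 (36.8%, against 20.2% of all), its variant in 4 (10.53% against 1.80%) and a GC box in 27 (71.1% against 38.2%). An E-box lay in 5 (13.2% against 8.09%), and an E2F site in none (0.374% of all). These letters are a description of the windows, and binding to them was not measured.

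**Figure D1:**
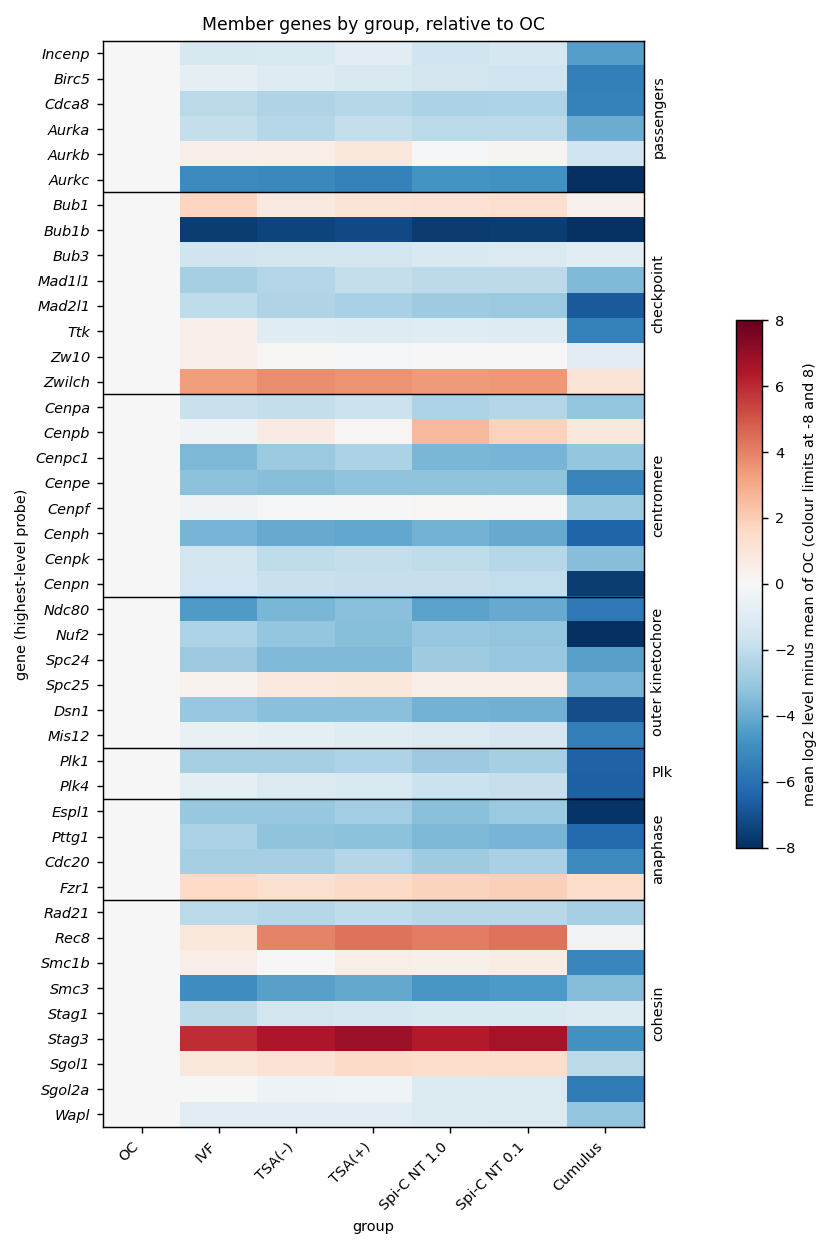
Mean log2 level of the 43 measured genes in each group, minus the mean in OC (colour scale from −8 to 8, so that values beyond are drawn at its ends). Rows are genes in blocks by role and columns are groups. Most rows are blue in the embryos and darker blue in Cumulus. Among the rows above OC in all embryo groups are *Stag3*, *Zwilch*, *Rec8*, *Fzr1*, *Bub1* and *Sgol1*. *Cenpb* was near background in most groups.

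Of the 43 genes, 30 had their highest group mean in OC and 35 their lowest in Cumulus. The IVF embryos had the highest mean of 3 genes (*Bub1*, *Ttk* and *Zw10*), TSA(+) clones that of 4 (*Aurkb*, *Sgol1*, *Spc25* and *Stag3*), TSA(–) clones that of *Zwilch* and Spi-C NT clones that of 5. Spread between arrays was larger in OC (median SD 0.39 on the log2 scale) than in IVF (median 0.20). *Cenpb*, which encodes a centromere DNA-binding protein, was well above background on 1 of 7 OC and 1 of 6 IVF arrays, and *Stag3* on 6 of 7 OC arrays. The other 41 genes exceeded background on all OC and all IVF arrays.

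From OC to IVF, transcripts of this machinery were lower in 29 of the 43 genes and higher in 7 at an adjusted p under 0.01 (limma, over all tested probes). Among all probes, 42.6% were lower and 23.4% higher in this comparison. The median log2 difference was −1.57 over the members and −0.87 over all tested probes, and 26 of the 43 lay below the latter. With each array centred on its median, 31 were lower and 4 higher. With quantile normalization, by contrast, 13 were lower and 16 higher, so the balance of directions rests on the scaling. Of the 36 genes called, 19 kept both call and direction under quantile normalization. The passengers *Incenp* and *Birc5*, the CENP-A gene *Cenpa*, the centriole kinase *Plk4* and *Wapl*, whose protein releases cohesin, were called in the opposite direction there. In 34 of the 36, levels did not overlap between OC and IVF, as was the case for 76.7% of all probes called. Within each of the 4 scan days that held both groups, all 36 kept their sign, with member medians of −1.83 to −1.52. For the 34 without overlap, the sign could not change within a day.

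The 4 genes with the largest falls kept their direction and call under every scaling tried. *Bub1b*, which encodes the checkpoint protein BubR1, ranged from 8.00 to 8.80 in OC (median 8.54, n = 7) and from 0.31 to 1.28 in IVF (median 0.93, n = 6). No IVF array came near an OC array, and the difference was −7.59 ± 0.17 on the log2 scale (limma SE, 192-fold, adjusted p = 1.80e-24). *Aurkc*, the Aurora kinase of germ cells, ranged from 8.19 to 9.16 in OC (median 8.73) and from 3.41 to 3.89 in IVF (median 3.64). The groups lay far apart, by −5.10 ± 0.27 (34.2-fold, adjusted p = 1.91e-16). *Smc3*, a core subunit of every cohesin ring, ranged from 5.34 to 6.39 in OC (median 6.02) and from 0.53 to 1.32 in IVF (median 1.08). All IVF arrays were lower, by 4.98 ± 0.18 in the mean (31.5-fold, adjusted p = 2.72e-20). *Ndc80*, whose protein binds microtubules in the outer kinetochore, ranged from 1.1 to 2.42 in OC (median 1.76) and from −3.02 to −2.57 in IVF (median −2.69). The groups did not overlap, and the difference was −4.52 ± 0.21 (23.0-fold, adjusted p = 1.02e-17).

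The rises were led by a meiotic cohesin subunit. *Stag3* ranged from −6.86 to −1.39 in OC (median −3.10) and from 2.17 to 2.91 in IVF (median 2.56). The OC arrays spread widely (SD 1.92), yet all lay below IVF, and the difference was 5.89 ± 0.53 (59.4-fold, adjusted p = 4.77e-11). Without OC replicate 1, the lowest array, it was 5.30. *Zwilch*, part of the complex that recruits dynein to kinetochores, ranged from −4.29 to −0.07 in OC (median −0.83) and from 2.08 to 2.37 in IVF (median 2.23). One OC array lay far below the others, and all were below IVF, by 3.36 ± 0.40 in the mean (10.3-fold, adjusted p = 1.23e-08). *Bub1*, a checkpoint kinase, ranged from 0.65 to 1.86 in OC (median 1.17) and from 2.76 to 3.21 in IVF (median 2.96). Every IVF array was above every OC array, and the difference was 1.69 ± 0.19 (3.23-fold, adjusted p = 3.98e-09), but it was 0.19 and not called as the mean over both of its probes. *Fzr1*, an activator of the APC/C in late mitosis and G1, ranged from −2.51 to −0.96 in OC (median −1.55) and from −0.27 to 0.43 in IVF (median 0.01). The groups were separate, by 1.61 ± 0.20 (3.05-fold, adjusted p = 4.13e-08).

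By role, 5 of the 6 Aurora kinases and passengers fell from OC to IVF, with a median log2 difference of −1.61. Besides *Aurkc* these were *Cdca8* (Borealin, −2.15), *Aurka* (the kinase of spindle poles, −1.91), *Incenp* (−1.31) and *Birc5* (Survivin, −0.74). *Aurkb*, the Aurora kinase of mitotic passengers, was not called (0.39 ± 0.16). Of the 8 checkpoint genes, 4 fell and 3 rose: *Mad1l1* (−2.65), *Mad2l1* (−2.04) and *Bub3* (−1.57) fell with *Bub1b*, and *Zw10* (0.43) rose with *Zwilch* and *Bub1*. The rise of *Zw10* was not called with both groups fitted alone, nor with arrays centred on their medians, where its difference was −0.25. *Ttk*, the kinase that starts checkpoint signalling, was not called (0.39 ± 0.17). Of the 8 centromere genes, 6 fell, by 3.75 (*Cenph*), 3.59 (*Cenpc1*), 3.26 (*Cenpe*), 1.78 (*Cenpa*), 1.55 (*Cenpn*) and 1.46 (*Cenpk*) on the log2 scale. *Cenpf* and *Cenpb* were not called.

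In the outer kinetochore, 5 of 6 genes fell: besides *Ndc80*, *Dsn1* (−3.04), *Spc24* (−2.93), *Nuf2* (−2.48) and *Mis12* (−0.57). *Spc25*, which encodes a partner of SPC24 in the same complex, was not called (0.30 ± 0.18). Both Polo-like kinases fell, *Plk1* by 2.67 and *Plk4* by 0.70 on the log2 scale. The call of *Plk4* was lost by Tukey's HSD (after a one-way test), with scan day as a block, with both groups fitted alone, as the mean over its probes, and without OC replicate 1, OC replicate 4 or IVF replicate 1. The separase gene *Espl1* (−3.01), the securin gene *Pttg1* (−2.55) and *Cdc20* (−2.66), which encodes the mitotic activator of the APC/C, fell together. The cohesin genes were split, with 4 lower (*Smc3*, *Rad21* at −2.13, *Stag1* at −2.08 and *Wapl* at −0.92) and 3 higher. The higher ones were *Stag3*, *Sgol1* (shugoshin, a protector of centromeric cohesion, 0.91 ± 0.19) and *Rec8* (0.88 ± 0.26). Neither *Sgol1* nor *Rec8* was called with arrays centred on their medians. *Rec8* was also not called by Tukey's HSD, with normexp, as the mean over its probes (−0.11), or without IVF replicate 1, IVF replicate 6 or OC replicate 7. *Smc1b* and *Sgol2a* were not called.

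**Figure D2:**
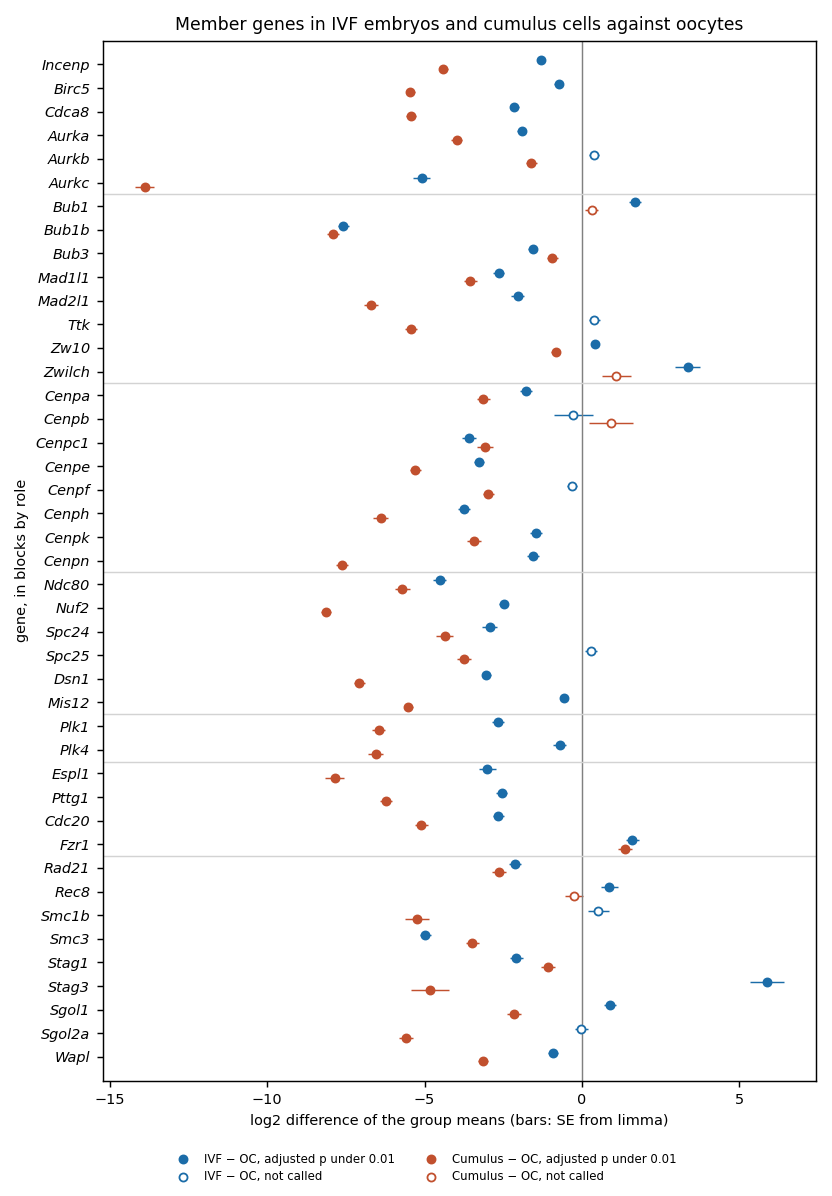
Log2 difference of IVF (blue) and of Cumulus (orange) from OC for the 43 genes, in blocks by role, with the SE from limma as bars. Filled points had an adjusted p under 0.01. Most points lie left of 0, *Stag3* is at 5.89 in IVF, and *Fzr1* is the only filled point right of 0 in Cumulus. Both comparisons share the OC arrays.

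Within arrays, the meiotic and the mitotic gene of a pair were compared by the difference of their log2 levels, in 4 pairs and 2 comparisons. *Aurkc* minus *Aurkb* was 5.48 lower in IVF than in OC, and *Sgol2a* minus *Sgol1* was 0.93 lower. *Rec8* minus *Rad21* was 3.0 higher and *Stag3* minus *Stag1* was 7.97 higher in IVF. None of the 4 overlapped between the groups, and each had the smallest p that 7 and 6 arrays allow (exact two-sided permutation test, p = 0.000583, adjusted p = 0.00117 over the 8 tests). Relative to their partners, the 2 meiosis-related kinase and shugoshin genes thus fell, and the 2 meiotic cohesin genes of these pairs rose. In the pair of *Rec8* and *Rad21*, *Rad21* itself fell, and the call of *Rec8* depended on the setting, as given above. In the pair of *Sgol2a* and *Sgol1*, *Sgol2a* itself was not called from OC to IVF, and *Sgol1* was higher in IVF. *Smc1b* was not among the pairs. By the mean over the probes of each gene the pair differences were −5.05, −1.58, 0.87 and 6.13 in the same order of pairs. Between Cumulus and OC the differences of the first 3 pairs were −12.3, −3.44 and 2.40 in that order, each with adjusted p = 0.00346 by the exact permutation test. In the third of these, *Rec8* itself was not called between Cumulus and OC, and *Rad21* was lower in Cumulus. For *Stag3* minus *Stag1* no difference is given there, since *Stag3* was not well above background on any Cumulus array.

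Of the genes, 15 had several probes, and in 5 of them another probe was called against the first from OC to IVF. These were *Bub1* (other probe −1.31), *Cenpe* (another probe 3.02), *Plk4* (0.66), *Rec8* (−1.1) and *Stag1* (another probe 5.31). The opposing probe of *Stag1* was well above background on 3 of 7 OC arrays, and that of *Cenpe* on all 7. The second probes of *Aurkc* (−4.23), *Smc3* (−5.32) and *Fzr1* (1.20) were called the same way as the first. Where the probes lie in their transcripts was not analysed here.

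Most of these transcripts were far lower in the donor cells than in oocytes. In Cumulus, 38 of the 43 genes were lower than in OC and 1 was higher, where 44.1% of all probes were lower and 23.5% higher. The median difference was −4.41 over the members and −1.14 over all probes. With quantile normalization 35 were lower and 3 higher. Between 500 cells and 10 oocytes, fewer dividing cells and less RNA per cell cannot be told apart. Of the 11 oocyte markers, 6 were not well above background on any Cumulus array, as given above, while *Gdf9* was well above it on all 4 (mean 0.34). No scan day held both groups.

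*Aurkc* was at −4.02, −4.59, −6.74 and −5.24 on the 4 Cumulus arrays, well above background on 3 of them. The groups were separated by −13.90 ± 0.30 (adjusted p = 4.13e-26), more than for any other member. *Nuf2*, a partner of NDC80, was at −0.37, 0.36, 0.48 and 0.39 in Cumulus and from 7.95 to 8.60 in OC (median 8.47). All Cumulus arrays were lower, and the mean difference was −8.13 ± 0.16 (280-fold, adjusted p = 3.85e-27). *Bub1b* was at −0.14, 0.85, 0.73 and 0.76 in Cumulus, against 0.31 to 1.28 in IVF. It was below OC by 7.92 ± 0.19 (242-fold, adjusted p = 6.34e-25). *Espl1* was at −5.58, −4.72, −5.51 and −5.26 in Cumulus and from 0.92 to 3.44 in OC (median 2.73). The difference was −7.86 ± 0.31 (232-fold, adjusted p = 6.74e-20), with no overlap. *Fzr1* alone was higher, at −0.44, 0.32, −0.15 and −0.53 in Cumulus. It exceeded OC by 1.38 ± 0.23 (2.60-fold, adjusted p = 3.89e-06).

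All 6 passenger genes, all 6 outer kinetochore genes and both Polo-like kinases were lower in Cumulus, with role medians of −4.92, −5.61 and −6.51. *Stag3* was not well above background on any Cumulus array, and it was at least 8.93-fold higher in OC (adjusted p = 2.49e-08), as set against the lowest signal well above background on the Cumulus arrays. With 1 OC array left out, this bound ranged from 7.15-fold (without replicate 5) to 13.5-fold (without replicate 1). The measured means were −3.31 in OC and −8.15 in Cumulus. *Smc1b*, the meiotic SMC1, was lower by 5.23 ± 0.39 and was well above background on 3 of 4 Cumulus arrays. Without Cumulus replicate 4 its difference was −5.94. The smallest falls were those of *Zw10* (−0.83), *Bub3* (−0.94) and *Stag1* (−1.09), which encode a dynein recruiter, a checkpoint protein and a cohesin subunit. With quantile normalization these 3 had differences of 0.15, 0.57 and 0.36, so their direction is not settled. *Rec8* (−0.25 ± 0.29), *Bub1* (0.31 ± 0.21), *Zwilch* (1.1 ± 0.45) and *Cenpb* (0.93 ± 0.70) were not called.

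**Figure D3:**
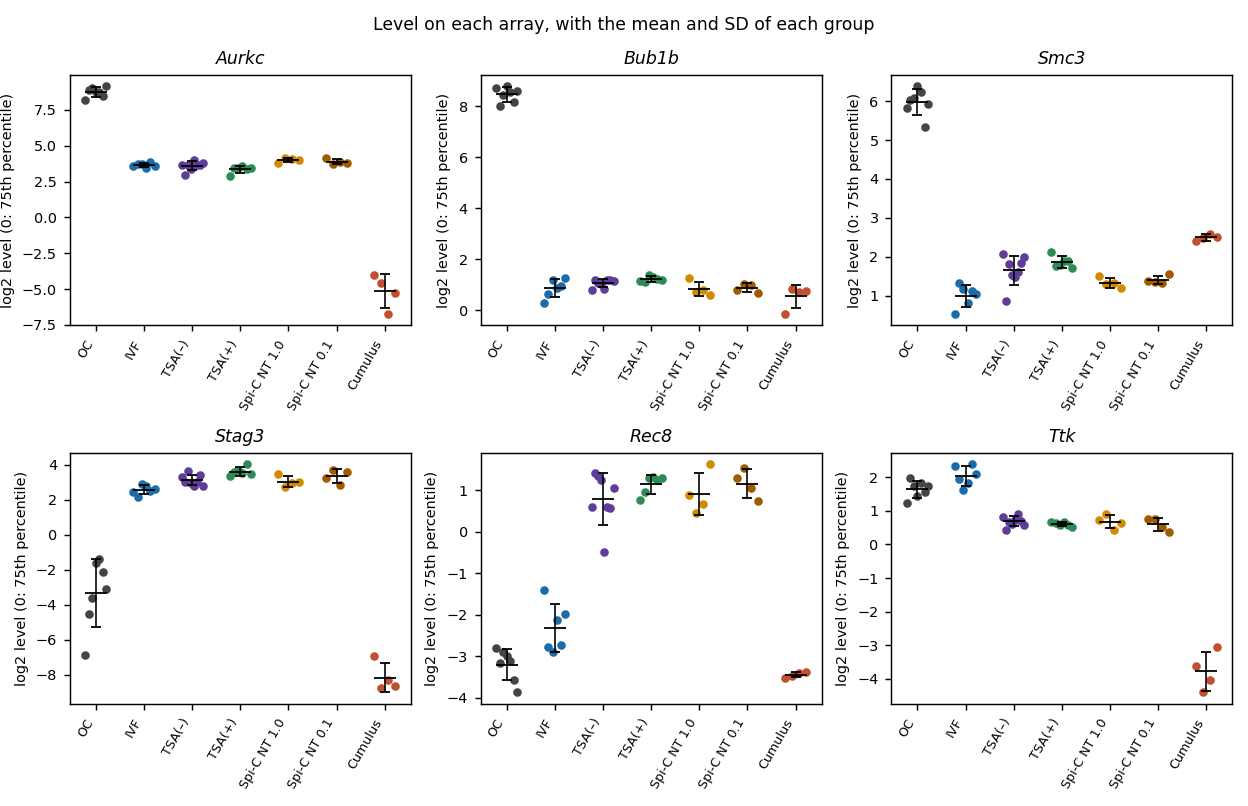
Log2 level (0 is the 75th percentile of the array) of 6 genes on every array, with the mean and SD of each group in black. *Aurkc*, *Bub1b* and *Smc3* were highest in OC, *Stag3* was high in all embryos, *Rec8* was higher in all clones than in OC, IVF and Cumulus, and *Ttk* was lower in clones than in IVF.

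Against IVF, the untreated clones differed in few of these genes. In TSA(–), 3 of 43 were higher and 4 lower, where 8.58% of all probes were higher and 10.2% lower, so the members' shares (6.98 and 9.30%) were near the background. The median difference was −0.10 over the members and −0.04 over all probes. With quantile normalization 6 were higher and 4 lower. Within each of the 4 scan days with both groups, all 7 kept their sign. Levels of 6 of the 7 did not overlap between the groups, as for 65.2% of all probes called, so the sign of these 6 could not change within a day.

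The largest difference was that of *Rec8*, the kleisin of meiotic cohesin. It ranged from −0.49 to 1.42 in TSA(–) (median 0.83, n = 8) and from −2.90 to −1.41 in IVF (median −2.42). Every clone pool was above every IVF pool, by 3.11 ± 0.25 in the mean (8.63-fold, adjusted p = 1.64e-10). *Rec8* was low on all OC arrays (−3.86 to −2.80) and on all Cumulus arrays (−3.52 to −3.38). No array of oocytes, donor cells or fertilized embryos reached a level seen in the clones by this probe. The second probe of *Rec8* was also higher, by 2.22 ± 0.21 (adjusted p = 4.19e-09), with means of −1.80 in TSA(–), −4.02 in IVF, −2.92 in OC and −4.03 in Cumulus. By that probe the clones (−2.84 to −1.22) did overlap with OC (−3.33 to −2.45). The difference from IVF kept its direction and call under all 29 other settings tried.

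Of the other 2 genes that rose, *Ndc80* ranged from −2.48 to −1.48 in TSA(–) (median −1.82) against −3.02 to −2.57 in IVF. It was separate from IVF, by 0.88 ± 0.20 (1.84-fold, adjusted p = 0.00134). *Smc3* ranged from 0.85 to 2.06 in TSA(–) (median 1.71) against 0.53 to 1.32 in IVF. The groups overlapped, and its difference of 0.65 ± 0.17 (adjusted p = 0.00461) was not called with both groups fitted alone, nor without TSA(–) replicate 1, TSA(–) replicate 8, IVF replicate 1 or IVF replicate 4.

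*Ttk* fell most. It ranged from 0.43 to 0.92 in TSA(–) (median 0.68) and from 1.62 to 2.39 in IVF (median 2.02). All clone pools were lower, by 1.36 ± 0.16 in the mean (2.56-fold, adjusted p = 2.37e-07). *Bub1* ranged from 1.40 to 2.26 in TSA(–) (median 2.05), below every IVF array, by 0.99 ± 0.18 (1.99-fold, adjusted p = 0.000124). Its second probe gave −0.27 and was not called. *Pttg1* ranged from 6.09 to 6.62 in TSA(–) (median 6.29) and from 6.69 to 7.24 in IVF (median 6.98). The levels did not overlap, and the difference of −0.66 ± 0.17 (1.58-fold, adjusted p = 0.00313) was not called with scan day as a block, nor without IVF replicate 5. *Nuf2* ranged from 5.08 to 5.45 in TSA(–) (median 5.26) and from 5.64 to 6.05 in IVF (median 5.93). It was lower on all clone arrays, by 0.60 ± 0.14 (1.51-fold, adjusted p = 0.00135).

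None of the 6 passenger genes, 8 centromere genes or 2 Polo-like kinases was called between TSA(–) and IVF. *Aurkb* differed by 0.12 ± 0.15, *Cenpa* by −0.10 ± 0.18 and *Plk1* by 0.05 ± 0.18. *Aurkc* differed by −0.06 ± 0.26, while its second probe was lower by 0.79 and was called. *Stag3*, which rose most from OC to IVF, differed by 0.55 ± 0.52. This SE comes from a fit that also held the OC arrays, where *Stag3* spread widely (SD 1.92). The levels of *Stag3* were 2.81 to 3.64 in TSA(–) and 2.17 to 2.91 in IVF.

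**Figure D4:**
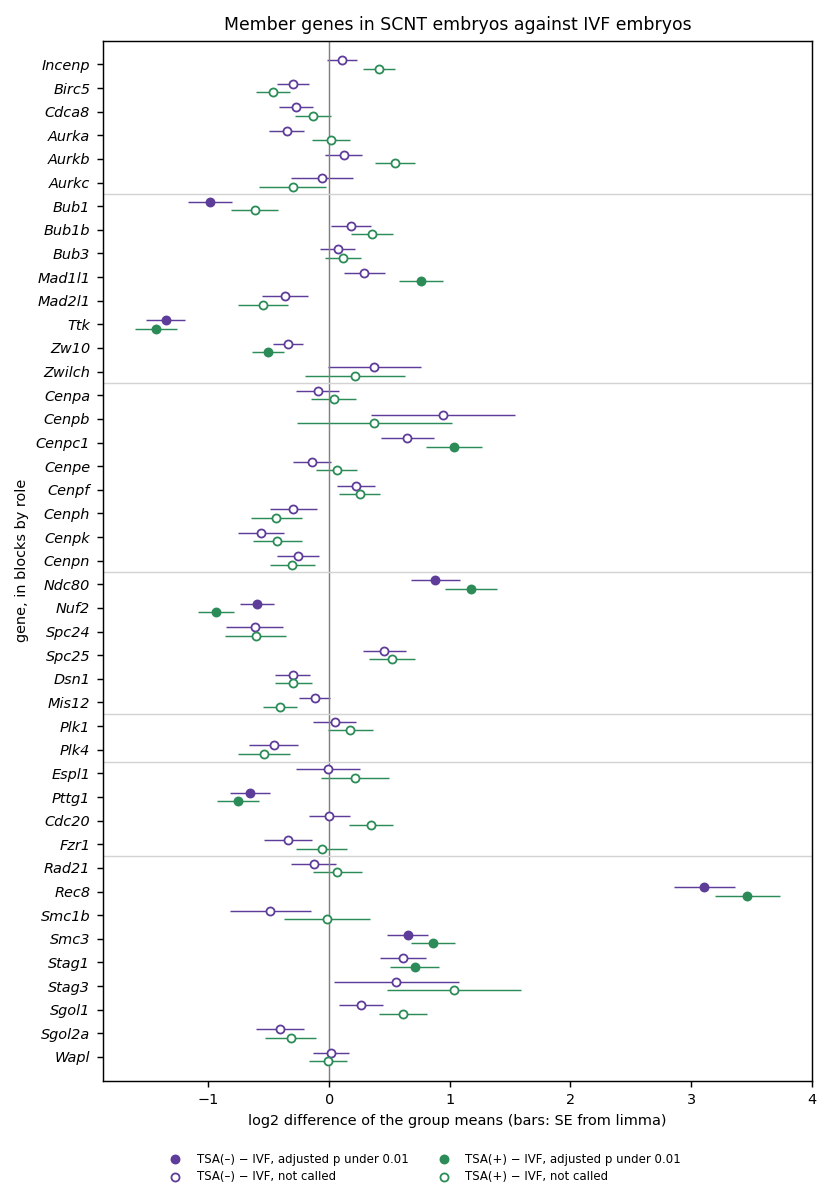
Log2 difference of TSA(–) (purple) and TSA(+) (green) from IVF for the 43 genes, in blocks by role, with the SE from limma as bars. Filled points had an adjusted p under 0.01. *Rec8* stands at 3.11 and 3.47, *Ttk* at −1.36 and −1.43, and most other points lie within 1 of 0. Both comparisons share the IVF arrays.

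In TSA(+) clones, 6 of 43 genes were higher than in IVF and 4 lower, where 8.02% of all probes were higher and 10.8% lower. The median difference was 0.04 over the members and −0.21 over all probes. With each array centred on its median, 10 were higher and 2 lower, and with quantile normalization 10 and 4. Within each of the 3 scan days with both groups, the 10 genes called kept their sign. Levels of all 10 did not overlap between the groups, as for 77.7% of all probes called, so their sign could not change within a day. *Rec8* ranged from 0.77 to 1.33 in TSA(+) (median 1.27, n = 6), above all IVF arrays, by 3.47 ± 0.27 (11.1-fold, adjusted p = 8.86e-11). *Ndc80* ranged from −1.89 to −1.33 (median −1.56), higher by 1.18 ± 0.22 (2.26-fold, adjusted p = 0.000117). *Cenpc1*, which encodes the inner kinetochore protein CENP-C, ranged from 1.1 to 1.63 in TSA(+) (median 1.42) and from −0.30 to 0.71 in IVF (median 0.43). The groups were separate, by 1.04 ± 0.23 (2.05-fold, adjusted p = 0.00118). *Smc3* ranged from 1.70 to 2.13 in TSA(+) (median 1.83), above every IVF array, by 0.86 ± 0.18 (1.82-fold, adjusted p = 0.00063). *Mad1l1* (0.76 ± 0.18) and *Stag1* (0.71 ± 0.20) were higher too, and the call of *Stag1* was lost with scan day as a block, as the mean over its probes, and when any 1 of the IVF arrays, or any 1 of 5 of the 6 TSA(+) arrays, was left out.

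*Ttk* ranged from 0.53 to 0.67 in TSA(+) (median 0.61), below IVF by 1.43 ± 0.17 (2.70-fold, adjusted p = 3.02e-07). *Nuf2* ranged from 4.72 to 5.11 in TSA(+) (median 5.00), with no overlap with IVF, and differed by −0.94 ± 0.15 (1.91-fold, adjusted p = 1.51e-05). *Pttg1* ranged from 5.87 to 6.54 in TSA(+) (median 6.25), lower by 0.76 ± 0.18 (1.69-fold, adjusted p = 0.00161). *Zw10* ranged from 3.23 to 3.55 in TSA(+) (median 3.48) and from 3.87 to 4.01 in IVF (median 3.96). Its levels did not overlap, but the difference of −0.50 ± 0.13 (1.42-fold, adjusted p = 0.00422) was not called with scan day as a block, without TSA(+) replicate 5, or with arrays centred on their medians (−0.31). The fall of *Pttg1* was not called there either (−0.56). The second probe of *Rec8* was higher by 2.45 ± 0.23 (adjusted p = 2.73e-09). *Aurkc* was not called by its first probe (−0.30 ± 0.28), but its second probe was lower by 0.60 ± 0.13 and was called. *Stag3* ranged from 3.35 to 4.04 in TSA(+), above every IVF array (2.17 to 2.91). It was not called in this fit, which also held the widely spread OC arrays.

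Between TSA(+) and TSA(–), which asks what the drug changed among clones, limma called none of the 43 genes, and neither did Tukey's HSD. At an unadjusted p under 0.05 there were 6 of the 43 genes, against 16.2% of all probes. Among all probes 0.0506% were higher and 0.0936% lower, so few calls were made anywhere in this comparison. The members' differences ranged from −0.57 (*Cenpb*) to 0.48 (*Stag3*), with SEs of 0.12 to 0.60 and a median difference of 0.13 over the members and −0.10 over all probes. *Rec8* differed by 0.36 ± 0.25 and *Ttk* by −0.08 ± 0.16. The 6 genes with an unadjusted p under 0.05 were not called, so a difference well beyond its SE could go uncalled with 6 and 8 arrays.

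Spi-C NT clones were compared with TSA(–) clones to ask what the injected mRNA changed. Lower levels were called in 11 of the 43 genes and higher ones in 2, where 8.89% of all probes were lower and 12.3% higher. The median difference was −0.10 over the members and 0.15 over all probes. With each array centred on its median, 15 were lower and none higher, and with quantile normalization 8 were lower and 8 higher. None of the 13 genes called differed by 2-fold or more by the probe used. *Aurkc* was not called by its first probe (0.34 ± 0.13), but its second probe was higher by 0.99 ± 0.09 and was called. Since all Spi-C NT arrays had been scanned apart from the TSA(–) arrays, the mRNA and the scan cannot be told apart. No clones with a control injection were among the samples, so the mRNA and the injection cannot be told apart either.

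*Sgol2a*, the shugoshin of meiotic centromeres, was at 3.29, 2.81, 2.93 and 3.0 with 1.0 mg/ml and at 2.75, 3.12, 3.04 and 3.09 with 0.1 mg/ml, against 3.34 to 4.07 in TSA(–) (median 3.69). All 8 were below TSA(–), by 0.69 ± 0.12 in the mean (1.62-fold, adjusted p = 8.48e-05), but its second probe was higher by 1.72 and was called. *Plk4* was at 3.08, 2.98, 2.87 and 2.85 with 1.0 mg/ml and at 2.61, 2.89, 2.76 and 2.88 with 0.1 mg/ml, against 3.17 to 3.69 in TSA(–) (median 3.56). It was separate from TSA(–), by −0.62 ± 0.11 (1.53-fold, adjusted p = 7.40e-05), and here too the second probe was called the other way (0.77). *Mis12*, part of the platform that joins the inner and outer kinetochore, was at 1.62, 1.57, 1.31 and 1.41 with 1.0 mg/ml and at 0.98, 1.55, 1.25 and 1.33 with 0.1 mg/ml. The TSA(–) arrays lay higher, from 1.68 to 2.12 (median 1.96), and the difference was −0.54 ± 0.11 (1.46-fold, adjusted p = 0.000283). *Cenpc1* was at 0.90, −0.19, −0.01 and 0.39 with 1.0 mg/ml and at −0.33, 0.34, 0.37 and 0.46 with 0.1 mg/ml. These overlapped with 0.45 to 1.66 in TSA(–) (median 1.04), and the difference was −0.76 ± 0.18 (1.69-fold, adjusted p = 0.00226).

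The 2 higher genes were *Bub1* and *Fzr1*, neither of which was called with arrays centred on their medians. *Bub1* was at 2.73, 2.23, 2.03 and 2.71 with 1.0 mg/ml and at 2.49, 2.50, 2.66 and 2.80 with 0.1 mg/ml, against 1.40 to 2.26 in TSA(–). The groups overlapped on 2 arrays of 1.0 mg/ml, and the difference was 0.54 ± 0.13 (1.45-fold, adjusted p = 0.00256). *Fzr1* was at 0.11, 0.18, 0.36 and 0.26 with 1.0 mg/ml and at 0.37, 0.33, 0.18 and 0.40 with 0.1 mg/ml, against −0.71 to 0.34 in TSA(–) (median −0.35). It overlapped with the highest TSA(–) array, and the difference was 0.59 ± 0.13 (1.5-fold, adjusted p = 0.00105). The remaining falls were those of *Cenpa* (−0.54), *Birc5* (−0.51), *Mad2l1* (−0.50), *Ndc80* (−0.50), *Aurkb* (−0.48), *Dsn1* (−0.45) and *Pttg1* (−0.42). The calls of *Birc5*, *Mad2l1* and *Pttg1* were lost with quantile normalization, and those of *Aurkb* and *Ndc80* with both groups fitted alone. The call of *Ndc80* was also lost when any 1 of 8 arrays was left out. These were Spi-C NT 1.0 replicates 2, 3 and 4, Spi-C NT 0.1 replicate 1, and TSA(–) replicates 1, 6, 7 and 8.

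*Rec8* in Spi-C NT clones was at 0.89, 0.46, 0.68 and 1.63 with 1.0 mg/ml and at 1.31, 1.54, 1.05 and 0.74 with 0.1 mg/ml. These values lay within or above the range of TSA(–), and the difference was 0.25 ± 0.24, which was not called. Between the doses, no member was called by limma or by Tukey's HSD, and none had an unadjusted p under 0.05, against 4.11% of all probes. Among all probes 0.00506% were higher and 0% lower at 1.0 mg/ml. The members' differences ranged from −0.38 (*Espl1*) to 0.79 (*Cenpb*), with SEs of 0.10 to 0.67.

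**Figure D5:**
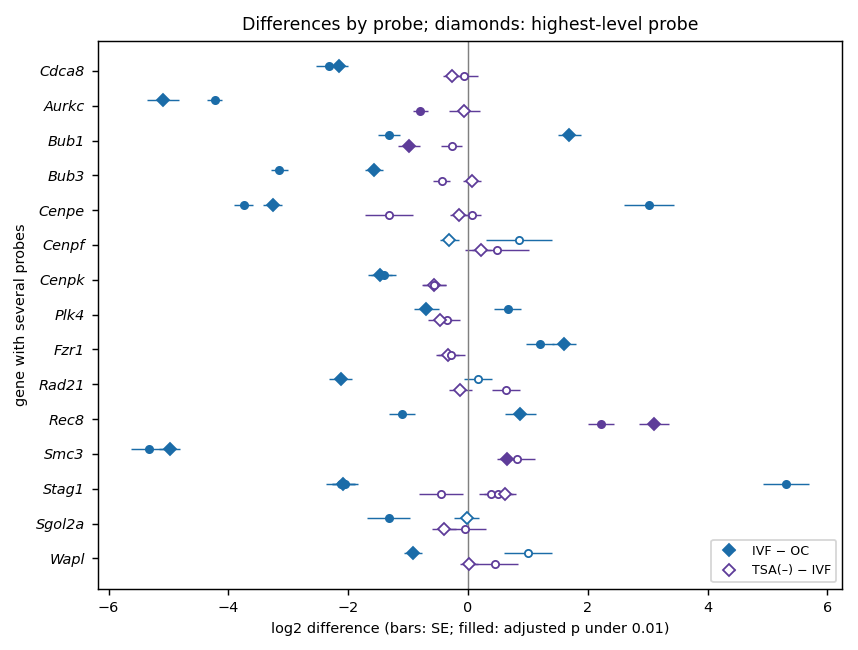
Log2 difference of each probe of the 15 genes with several probes, from OC to IVF (blue) and from IVF to TSA(–) (purple), with the SE from limma as bars. Diamonds are the probe by which the gene is given and filled symbols had an adjusted p under 0.01. Both probes of *Rec8* lie at 2.22 or above in purple, while *Bub1*, *Cenpe*, *Plk4*, *Rec8* and *Stag1* have filled blue symbols on both sides of 0.

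Other genes of chromosome segregation were counted as lists for comparison, each gene by its highest-level probe. Over all probes, 42.6% were lower and 23.4% higher in IVF than in OC. From OC to IVF, 13 of 15 spindle and midzone genes fell and 1 rose, led by the motor genes *Kif23* (−4.18) and *Kif11* (−4.11) and by the rise of *Tacc3* (4.18). As the mean over its probes, *Kif11* was at 0.18 and not called. Of 7 measured condensin genes 6 fell, *Ncapg2* (−3.57) and *Ncapd3* (−2.79) most, and *Ncapd2* rose (0.91), which was not called with arrays centred on their medians. Of 14 APC/C subunit genes, 9 fell, led by *Cdc27* (−3.59) and *Anapc4* (−3.56), and 4 rose, led by *Cdc23* (4.27) and *Anapc7* (3.94). Other cohesin genes fell in 7 of 9 cases, led by the acetyltransferase gene *Esco2* (−3.96) and the deacetylase gene *Hdac8* (−3.27), and rose in 2, *Pds5a* (4.04) and *Mau2* (1.62), the latter not called with arrays centred on their medians or as the mean over its probes. Of 23 other kinetochore genes 7 fell (30.4%), led by *Cenpu* (−3.15) and *Hjurp* (−2.50), and 5 rose (21.7%), led by *Cenpt* (5.73) and *Ska3* (4.87). Both shares were below those of all probes.

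In Cumulus against OC, all 7 condensin genes, 14 of 15 spindle genes and 18 of 23 other kinetochore genes were lower, with list medians of −1.55, −5.19 and −3.20. *Esco2* (−10.7), *Kif23* (−8.44), *Ncapg2* (−7.18) and *Cdca5* (sororin, −7.13) were among the lowest, and *Cdc23* (4.95), *Cenpt* (4.90) and *Anapc7* (4.40) among the higher ones. The APC/C subunits were split, 9 lower and 4 higher, and other cohesin genes were 6 lower and 1 higher. Of all probes, 44.1% were lower and 23.5% higher in Cumulus than in OC.

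Between TSA(–) and IVF, 8.58% of all probes were higher and 10.2% lower. Of the 7 condensin genes 1 was higher (14.3%, *Ncapg2*, 0.84), and of the 15 spindle genes 2 were higher (13.3%, *Kif2c*, 1.13, and *Nusap1*, 0.66). The APC/C list of 14 had 2 higher (*Anapc4* and *Cdc16*, both 0.64) and 1 lower (*Anapc16*, −0.72). The other kinetochore list of 23 had 3 higher and 4 lower (13.0 and 17.4%), led by *Nsl1* (1.23) and *Cenpq* (−1.11). Of the other cohesin genes, *Cdca5* was lower (−0.46), a call that was lost in 17 of 28 other settings, among them median centring, quantile normalization, scan day as a block and the omission of any 1 of 11 arrays. For TSA(+) against IVF, where 8.02% of all probes were higher and 10.8% lower, the lists were counted in the same way. The counts of higher and lower genes were 1 and 0 for condensin, 3 and 1 for the spindle, 2 and 1 for the APC/C, 3 and 5 for other kinetochore genes, and 0 and 0 for other cohesin genes. *Kif2c* (1.18), *Nsl1* (1.22), *Ska2* (−1.37) and *Cenpq* (−1.06) were the largest of these, and neither *Ska2* nor *Cenpq* was called with arrays centred on their medians. In Spi-C NT against TSA(–), 5 spindle genes, 4 other kinetochore genes, 3 APC/C genes, 2 other cohesin genes and 1 condensin gene were lower, among them *Esco2* (−1.64), *Ckap5* (−1.38), *Cenpi* (−1.28) and *Ncapd3* (−1.1). The higher ones were 4 other kinetochore genes, led by *Cenpm* (0.92), and *Anapc16* (0.47), which was not called with arrays centred on their medians. Of all probes, 8.89% were lower and 12.3% higher in Spi-C NT. *Ckap5* was at 0.10 as the mean over its probes. No gene of these lists was called between TSA(+) and TSA(–).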

How the data were processed

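The samples were 39 Agilent whole-genome arrays of 1 colour (Cy3), hybridised with RNA amplified from pooled oocytes, embryos or cumulus cells. The deposited scanner files give, per the file headers, the processed intensity of each probe (background-subtracted by Agilent Feature Extraction 9.5.3.1, or 10.5.1.1 for Spi-C NT and Cumulus), with no normalization between arrays. The authors also deposited a table of log2 values, used as an alternative. Its columns matched the log2 intensities scaled to the 75th percentile and centred per probe on the median (r of at least 0.9997), with column medians of −0.30 to 1.08.

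Here log2 intensity minus the 75th percentile of each array was used. Probes with an intensity of at least 10 on at least 1 IVF or clone array were tested (39517), without imputation of the 1820 missing values. Genes were named from the accessions in the files through RefSeq (27861 probes, 18905 genes). limma 3.58.1 (R 4.3.3) was fitted over all probes with Benjamini-Hochberg adjustment and a threshold of 0.01. OC, IVF, TSA(–), TSA(+) and Cumulus were fitted together, as were IVF, TSA(–), TSA(+) and Spi-C NT, with the 2 doses pooled or, for their comparison, apart. Paralog pairs were tested by an exact two-sided permutation test. The script was tested on simulated data. The precision is limited by the number of arrays.

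In each comparison the genes given with values on all arrays were the 4 with the largest called differences in each direction whose probe exceeded background throughout the higher group. The members and lists were chosen with earlier results of these data known. Replicate numbers did not pair the samples: same-numbered arrays deviated from their group means with r of −0.09 to 0.08. The alternatives were other scalings, background correction, filters, thresholds, blocks, probe rules and the omission of each array. Python 3.11.15 and matplotlib 3.10.9 drew the figures.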

Additional observations from a re-analysis of the deposited data

Results flagged for a closer look

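In 5 cases an array stood apart from the others of its group by Dixon's test of the gap to the nearest value over the whole range, out of 61 groups of values tested, of which chance gives about 1 in 20. *Zwilch* on OC replicate 1 was at −4.29, where the other OC arrays were at −1.36 to −0.07 (ratio 0.695). *Bub1b* and *Nuf2* stood apart on the same array, Cumulus replicate 1: *Bub1b* was at −0.14 against 0.73 to 0.85 (ratio 0.882), and *Nuf2* at −0.37 against 0.36 to 0.48 (ratio 0.863). *Rec8* on TSA(–) replicate 5 was at −0.49 against 0.56 to 1.42 on the other TSA(–) arrays (ratio 0.551), and still above every IVF array. *Cenpc1* on Spi-C NT 0.1 replicate 1 was at −0.33 against 0.34 to 0.46 (ratio 0.844). All values are log2 levels relative to the 75th percentile of the array.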

How the results depend on the processing

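The counts of genes called stayed within 1.5 times of those reported under the other settings tried, with these exceptions. With background correction by normexp, 17 genes were called between TSA(+) and IVF. At an adjusted p under 0.05 there were 11 for TSA(–) against IVF, 18 for TSA(+) against IVF and 22 for Spi-C NT against TSA(–), and with a change of at least 2-fold required 2, 4 and 0. With each array left out in turn, the counts were 34 to 36 for IVF against OC, 39 for Cumulus against OC, 6 to 7 for TSA(–) and 9 to 10 for TSA(+) against IVF, 12 to 15 for Spi-C NT against TSA(–), and 0 for the remaining comparisons. The signals of *Stag3* minus *Stag1* between Cumulus and OC then gave −4.47 to −3.38, but with *Stag3* at background in Cumulus these are not measured differences. With scan day as a fixed block, 35 genes were called for IVF against OC, 6 for TSA(–) and 8 for TSA(+) against IVF, all among those reported. Replicate numbers did not pair the samples. With them as a replicate block, 7 genes were called for Spi-C NT against TSA(–), 6 of them among the 13, and 35, 39, 6 and 8 in the other comparisons in the order above.

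Some genes turned in direction, and the cause was not tested. With quantile normalization the IVF against OC differences were *Incenp* 0.84, *Birc5* 1.41, *Cdca8* 0.10, *Bub3* 0.034, *Mad2l1* 0.22, *Cenpa* 0.43, *Cenpn* 0.16, *Mis12* 0.27, *Plk4* 0.85 and *Wapl* 1.25, and the Cumulus against OC differences were *Bub3* 0.57, *Zw10* 0.15 and *Stag1* 0.36. With arrays centred on their medians, *Zw10* was at −0.25 for IVF against OC. As means over all probes of a gene, *Rec8* was at −0.11, *Wapl* at 0.041 and *Kif11* at 0.18 for IVF against OC, *Smc1a* at −0.45 for Cumulus against OC, and *Plk4* at 0.076, *Sgol2a* at 0.51, *Kif20b* at 0.32 and *Ckap5* at 0.10 for Spi-C NT against TSA(–). Dim probes limit *Cenpb* in most groups, and *Stag3*, *Aurkc* and *Smc1b* in Cumulus.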
